A study of Homo sapiens with 18 samples.

Results

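Aminoacyl-tRNA synthetases are the enzymes that join each amino acid to its tRNA, the step that supplies the ribosome with charged tRNA. The genes described here are the 36 synthetase genes listed by name, 20 for cytosolic and 16 for mitochondrial enzymes (symbols ending in 2, apart from FARSA and FARSB, which are the subunits of the cytosolic phenylalanine enzyme), out of 38716 gene symbols in the data. They were chosen by name and not by any measured value. Older symbols are used, as in the data (for example WARS for the gene now called WARS1).

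All libraries were made from IMR90, human fibroblasts derived from fetal lung. Proliferating cells at low passage are called young, cells brought to replicative senescence by many passages are called old, and ICM stands for low-passage cells given inflachromene, a small molecule that binds HMGB1 and HMGB2. The labels give neither the dose nor the duration for these libraries. A duration of treatment for the ICM Ribo-seq data and the mRNA-seq matched to them is stated in the results of the study. Each condition was measured in 3 replicates by mRNA-seq of poly(A) RNA and by Ribo-seq, which sequences the mRNA fragments (footprints) that ribosomes protect from nuclease, giving 18 libraries. The results of the study set its data of proliferating and ICM cells against senescence data made earlier. Its methods, however, describe Ribo-seq of all 3 conditions together. The labels give no batch for any library. Batch and condition therefore cannot be told apart, for old cells or in any comparison whose groups were made at different times. Every comparison is within 1 cell line.

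Cytosolic and mitochondrial protein synthesis use separate sets of synthetases, all encoded in the nucleus. For most amino acids there is a gene for each compartment, whereas GARS (glycine) and KARS (lysine) each give rise to both enzymes. Several cytosolic enzymes, with the scaffold proteins AIMP1, AIMP2 and EEF1E1, form the multisynthetase complex. Many cytosolic synthetase genes are known targets of ATF4, the transcription factor of the amino acid response, which binds a composite C/EBP-ATF site.

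The depth of the libraries set what could be seen. The mRNA-seq libraries held 7902427 to 14144455 reads in coding genes, of which 29384 to 54279 fell on the synthetases. The Ribo-seq libraries held 46239 to 1718521 reads in coding sequence (CDS), a 37.2-fold range, of which 220 to 12800 fell on the synthetases. Young replicate 1 and old replicate 2 had the lowest share of Ribo-seq reads in the CDS, at 34.4% and 15.0%. All 7 fibroblast markers (COL1A1, COL1A2, COL3A1, VIM, THY1, PDGFRB, FN1) were detected, all 7 fell in ICM while 2 rose and 2 fell in old against young, and their summed mRNA level was 31060 to 35270 CPM (counts scaled to a common library size) in young, 27653 to 32563 in old and 12614 to 12756 in ICM. Of the markers of other cell types, EPCAM, CDH1, PTPRC and PECAM1 never exceeded 12 mRNA reads in a library. VWF had 0 to 6 reads in young, 7 to 9 in old and 35 to 46 in ICM, and was called higher in ICM than in young (edgeR adjusted p = 7.1e-08). KRT18 (27.9 to 289.5 CPM) and CD68 (19.6 to 66.5 CPM) were present in all 9 mRNA-seq libraries and differed in ICM from young by -3.22 ± 0.08 and 1.51 ± 0.09 (log2 ± SE). Of 5 markers of the proliferating and senescent states, 4 fell (MKI67, LMNB1, HMGB1, HMGB2) and 1 rose (CDKN1A) in both ICM and old cells. Of all genes tested in mRNA-seq, 36.1% fell and 34.9% rose in ICM vs young, and 33.7% and 32.4% in old vs young. The part of the marker change in the results below was not tested.

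The synthetases as a class took up a smaller part of the transcriptome and of the translated mRNA in both old and ICM cells, and the cytosolic enzymes held most of that difference. The 20 cytosolic genes together held 0.432%, 0.430% and 0.422% of mRNA-seq reads in the young libraries, 0.258%, 0.268% and 0.252% in old and 0.260%, 0.270% and 0.253% in ICM. The old mean was 0.605 times and the ICM mean 0.609 times the young mean, and neither group overlapped with young. The 16 mitochondrial genes held 0.0467%, 0.0483% and 0.0474% in young, 0.0403%, 0.0441% and 0.0406% in old, and 0.0480%, 0.0463% and 0.0472% in ICM, so that the mean in old was 0.878 times and in ICM 0.993 times that in young. In ICM the mitochondrial shares overlapped with young. In bulk samples such as these, fewer cells of a type and less RNA per cell cannot be told apart.

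Footprints gave a like picture for the cytosolic enzymes. Their share of CDS footprints was 0.571%, 0.705% and 0.695% in young, 0.374%, 0.366% and 0.402% in old and 0.426%, 0.386% and 0.401% in ICM, with means 0.580 times (old) and 0.616 times (ICM) the young mean and no overlap with it. The shallowest of these libraries, ICM replicate 3, rested on 185 cytosolic footprints, with a 95% exact binomial interval of 0.345% to 0.463%, which covers counting error only. The mitochondrial share was 0.0479% to 0.0533% in young, 0.0401% to 0.0513% in old and 0.0317% to 0.0758% in ICM, and the groups overlapped. The ICM values rested on 25 to 125 footprints.

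**Figure D1:**
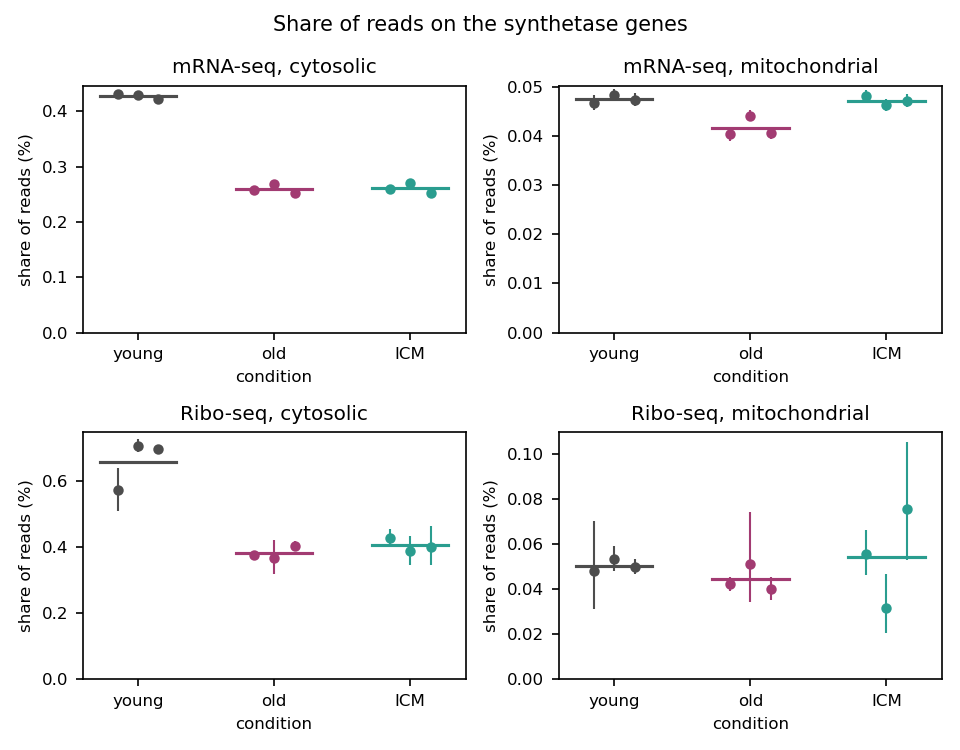
Share of reads (percent, axes from 0) on the 20 cytosolic and the 16 mitochondrial synthetase genes in each library, by condition, with points for libraries (exact binomial 95% intervals) and bars for means of 3. The cytosolic share sits near 0.43% of mRNA reads in young and between 0.25% and 0.27% in the old and ICM libraries, whereas the mitochondrial mRNA share of ICM overlaps with young.

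At the level of single genes, each assay was fitted with edgeR, and a gene was called changed at a Benjamini-Hochberg adjusted p under 0.05 over all genes tested. Changes are log2 differences of TMM-scaled counts (a scaling that sets the bulk of genes to no change) with their standard error (SE). All 36 synthetases passed the filter in mRNA-seq. In ICM vs young, 17 of 20 cytosolic genes fell, 2 rose and FARSA did not pass the test, with a median change of -0.55. Of all 13173 genes tested, 36.1% fell and 34.9% rose, with a median of -0.01. In old vs young, 19 of 20 cytosolic genes fell and none rose (19 at an unadjusted p under 0.05, none of them upward), with FARSA again not called and a median of -0.48, against 33.7% falling and 32.4% rising among all genes. Both comparisons share the young libraries.

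The mitochondrial genes moved less. In ICM vs young, 6 of 16 fell, 1 rose (RARS2) and 9 did not pass the test, with a median change of -0.17. In old vs young, 8 fell, 1 rose (RARS2 again) and 7 did not pass, with a median of -0.32. The share falling was thus 37.5% in ICM and 50% in old, beside 36.1% and 33.7% of all genes. The difference between the medians of the cytosolic and mitochondrial genes was -0.38 (ICM) and -0.16 (old) against young.

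**Figure D2:**
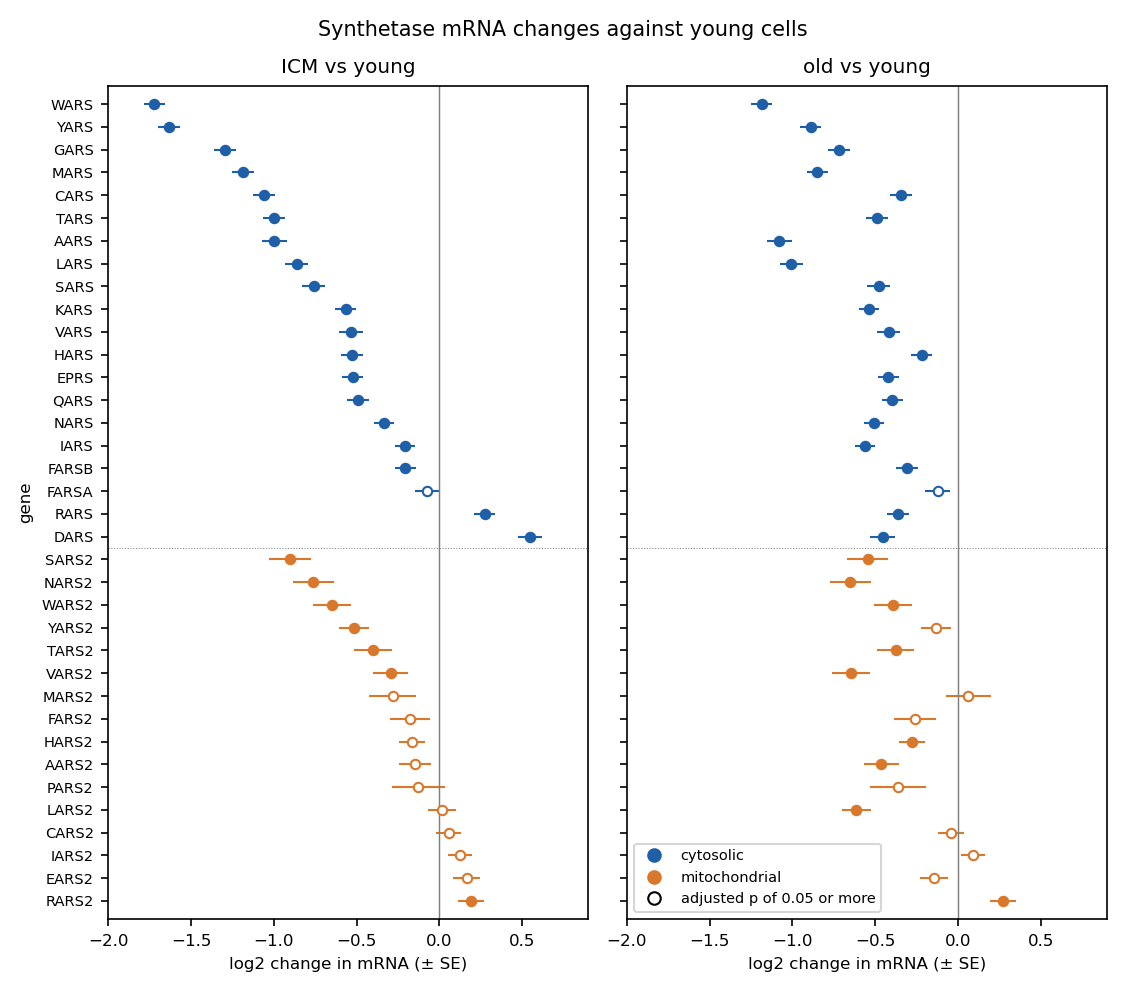
log2 change in mRNA (± SE, edgeR) of the 36 synthetase genes in ICM vs young (left) and old vs young (right), with cytosolic genes above and mitochondrial genes below the dotted line, in the order of the ICM change, with filled points for called genes and open points for the others. WARS is lowest at -1.72 in ICM and -1.18 in old, DARS and RARS lie right of 0 in ICM and left of 0 in old, and the mitochondrial genes straddle 0.

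Levels can be compared between genes per length of coding sequence. Using CDS reads only, as CPM per kb of coding length of the GENCODE canonical transcript, the median of the cytosolic genes in young cells was 91.8 and that of the mitochondrial genes 11.5, a ratio of 7.98. GARS (320 ± 3.57, SD, n = 3) and WARS (316 ± 10.6), which did not differ beyond their spread, stood at the top, followed by SARS (serine, 262 ± 8.47) and YARS (tyrosine, 214 ± 8.08). VARS (valine) was the lowest cytosolic gene at 45.7 ± 4.76. RARS2 (mitochondrial arginine, 60.0 ± 4.52) was the highest mitochondrial gene and PARS2 (mitochondrial proline, 4.08 ± 0.340) the lowest. In this order, 21 of 35 pairs of neighbouring genes had overlapping replicates.

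Footprints per length gave WARS at 446 ± 15.0 and GARS at 348 ± 43.3 in young cells, and their replicates did not overlap. Medians were 128 for cytosolic and 13.4 for mitochondrial genes, a ratio of 9.57. In ICM the same ratio was 8.08 in mRNA and 8.50 in footprints, and in old cells it was 8.86 and 9.15. FARSA and FARSB, which make up the phenylalanine enzyme in equal numbers, differed in mRNA per length in young cells by a ratio of 1.34, 1.41 and 1.31, and in footprints by 0.725, 1.23 and 0.984. The mRNA ratio was thus above 1 in every young library while the footprint ratio lay on both sides of it. The footprint ratio of 0.725 was that of young replicate 1, which held 336 footprints on all synthetases together. Whether the ratios differ between the assays was not tested.

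**Figure D3:**
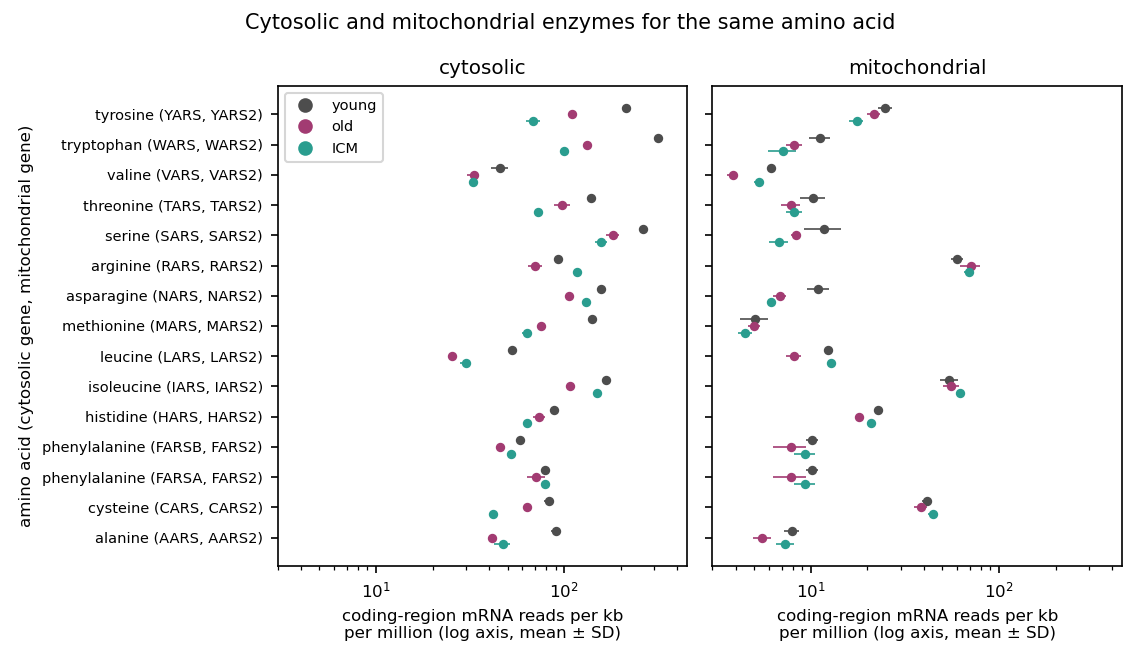
mRNA level as CPM per kb of coding length (CDS reads, log axis, mean ± SD of 3 libraries) for each amino acid with a gene in both compartments, by condition. For most amino acids the cytosolic gene (left) lies higher than its mitochondrial counterpart (right), with medians over all synthetases of 91.8 and 11.5 in young, and the cytosolic points of old and ICM lie left of young for most genes.

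The largest fall was that of WARS, the tryptophan enzyme, which is also known as an interferon-induced gene. Its mRNA was 470, 478 and 439 CPM in the young libraries, 203, 216 and 191 in old and 141, 143 and 137 in ICM. The conditions were fully separated, with young highest and ICM lowest. The change was -1.72 ± 0.06 (SE) in ICM vs young (edgeR adjusted p = 2.5e-16), -1.18 ± 0.06 in old vs young (adjusted p = 3.1e-13) and -0.54 ± 0.06 in ICM vs old (adjusted p = 1.7e-07).

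YARS, the tyrosine enzyme, came next in ICM. It was measured at 296, 283 and 288 CPM in young, 156, 158 and 153 in old and 87.1, 102 and 90.6 in ICM. No group overlapped with another. Its change was -1.63 ± 0.07 in ICM vs young (edgeR adjusted p = 7.5e-16) and -0.89 ± 0.06 in old vs young (adjusted p = 3.7e-11), and it was lower in ICM than in old by -0.74 ± 0.07 (adjusted p = 1.3e-09), the largest fall of a synthetase in that comparison.

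In old cells the second largest fall was that of AARS, the alanine enzyme. Its mRNA went from 173, 193 and 190 CPM in young to 89.7, 88.2 and 85.8 in old and 89.9, 105 and 84.0 in ICM. The old and ICM libraries overlapped, and the change was -1.08 ± 0.07 in old vs young (edgeR adjusted p = 2.2e-11) and -0.996 ± 0.07 in ICM vs young (adjusted p = 4.5e-11). CARS, the cysteine enzyme, behaved otherwise, with 150, 136 and 134 CPM in young, 113, 110 and 107 in old and 66.3, 72.4 and 62.6 in ICM. It stood between the groups in old cells, and was lower in ICM than in old by -0.72 ± 0.07 (adjusted p = 5.5e-09).

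GARS and KARS, whose genes serve both compartments, fell as well. GARS was at 468, 476 and 455 CPM in young, 282, 299.5 and 267 in old and 181, 209 and 181 in ICM, without overlap, and changed by -1.29 ± 0.07 in ICM vs young (edgeR adjusted p = 1.0e-13), -0.72 ± 0.07 in old vs young (adjusted p = 3.1e-09) and -0.57 ± 0.07 in ICM vs old (adjusted p = 1.5e-07). KARS was at 204, 189 and 181 CPM in young, 130, 138 and 127 in old and 128, 132 and 128 in ICM, so that the last 2 groups overlapped. Its change was -0.57 ± 0.06 in ICM vs young (adjusted p = 3.8e-08) and -0.54 ± 0.06 in old vs young (adjusted p = 1.2e-07). Without both genes, the median of the cytosolic genes was -0.53 (ICM) and -0.47 (old) against young.

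DARS (aspartate) and RARS (arginine) were the cytosolic genes that rose in ICM. DARS mRNA was 62.9, 59.9 and 64.2 CPM in young, 40.6, 49.2 and 46.1 in old and 95.2, 90.4 and 87.3 in ICM, with old below and ICM above every young library. It changed by 0.55 ± 0.07 in ICM vs young (edgeR adjusted p = 4.5e-07) and by -0.45 ± 0.08 in old vs young (adjusted p = 1.6e-05), which gave the largest difference of any synthetase between ICM and old, 1.00 ± 0.07 (adjusted p = 4.6e-11). RARS had 119, 125 and 118 CPM in young, 89.6, 101 and 90.6 in old and 149, 147 and 142 in ICM, in the same order of groups and without overlap. It changed by 0.27 ± 0.06 in ICM vs young (adjusted p = 5.5e-04), -0.36 ± 0.06 in old vs young (adjusted p = 4.0e-05) and 0.64 ± 0.06 in ICM vs old (adjusted p = 1.1e-08). Both enzymes belong to the multisynthetase complex.

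FARSA was the cytosolic gene whose change did not pass the test against young cells. It was measured at 81.3, 84.5 and 77.6 CPM in young, 77.9, 65.4 and 81.2 in old and 76.1, 79.7 and 75.6 in ICM, and all groups overlapped. Its partner subunit FARSB fell, with log2 changes against young of -0.21 (ICM) and -0.31 (old). FARSA was called in old vs young without old replicate 3, the old library in which it was highest, at -0.19 (adjusted p = 0.039).

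Compared directly, ICM and old cells differed in both directions. Of the 20 cytosolic genes, 4 were higher in ICM (DARS, RARS, IARS and NARS) and 8 lower, with a median of -0.10, where 30.7% of all genes tested were higher and 32.6% lower. Of the 16 mitochondrial genes, 4 were higher (LARS2, VARS2, AARS2 and EARS2) and 3 lower (YARS2, SARS2 and MARS2), with a median of 0.06. The call of MARS2 was lost with DESeq2, with CDS reads alone and without old replicate 1, old replicate 3, ICM replicate 2 or ICM replicate 3 (adjusted p between 0.060 and 0.16), that of AARS2 without old replicate 2 or ICM replicate 1, and that of NARS without old replicate 1 or ICM replicate 2. Thus 20% of the cytosolic and 25% of the mitochondrial genes were higher, and 40% and 18.8% were lower, which is not far from the shares of all genes.

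The members of the multisynthetase complex and the other cytosolic genes can be set side by side. The 8 genes of the complex (EPRS, IARS, LARS, MARS, QARS, RARS, KARS, DARS) had a median change of -0.51 in ICM vs young, with 6 falling and 2 rising, and the 12 genes outside it a median of -0.88, with 11 falling. In old vs young, medians were -0.50 and -0.48, and all 8 genes of the complex and 11 of the others fell. Of all genes tested, 36.1% fell and 34.9% rose in ICM vs young, and 33.7% and 32.4% in old vs young. In ICM vs old, 3 genes of the complex were higher and 1 lower, against 1 and 7 of the others, with medians of 0.06 and -0.29, where 30.7% of all genes were higher and 32.6% lower. The difference between these groups of genes was not tested. Synthetases also fall into 2 structural classes that differ in the fold of the catalytic domain. The 9 cytosolic genes of class I had a median of -0.86 and the 10 of class II of -0.55 in ICM vs young, whereas in old vs young these were -0.56 and -0.48. EPRS, which joins an enzyme of each class in one protein, was not counted in either.

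Among the mitochondrial genes, SARS2 (serine) fell furthest in ICM. Its mRNA was at 11.9, 12.9 and 16.1 CPM in young, 8.60, 9.64 and 9.83 in old and 7.74, 6.85 and 7.38 in ICM. The groups did not overlap, and the change was -0.90 ± 0.13 in ICM vs young (edgeR adjusted p = 1.6e-06) and -0.55 ± 0.12 in old vs young (adjusted p = 5.3e-04). The difference between ICM and old, -0.36 ± 0.13 (adjusted p = 0.025), was lost without old replicate 2, old replicate 3, ICM replicate 2 or ICM replicate 3, with adjusted p between 0.052 and 0.079, and with DESeq2 (adjusted p = 0.066).

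NARS2 (asparagine) was at 15.9, 12.5 and 13.2 CPM in young, 8.49, 8.08 and 9.64 in old and 8.56, 7.31 and 8.22 in ICM. Both groups lay below every young library and overlapped with each other, with changes of -0.76 ± 0.12 in ICM vs young (edgeR adjusted p = 1.0e-05) and -0.65 ± 0.12 in old vs young (adjusted p = 8.2e-05). For asparagine and serine, in contrast to most amino acids, the mitochondrial gene thus fell more in value than its cytosolic counterpart in ICM vs young (NARS, -0.33, and SARS, -0.76); the difference within a pair was not tested.

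LARS2 and VARS2, for leucine and valine, separated old from ICM cells. LARS2 mRNA was 31.6, 34.2 and 33.6 CPM in young, 19.5, 21.1 and 24.4 in old and 34.6, 32.8 and 33.2 in ICM. ICM and young overlapped (0.02 ± 0.08, adjusted p = 0.87) while old was below both, by -0.61 ± 0.09 against young (edgeR adjusted p = 2.3e-06) and with ICM 0.63 ± 0.09 above old (adjusted p = 1.3e-06). VARS2 was at 13.3, 13.3 and 12.6 CPM in young, 8.06, 7.86 and 9.09 in old and 10.2, 10.5 and 11.1 in ICM. Old was lowest and ICM between the groups, with changes of -0.65 ± 0.11 in old vs young (adjusted p = 3.0e-05) and 0.35 ± 0.11 in ICM vs old (adjusted p = 0.010).

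YARS2 (tyrosine) showed the opposite order, with 26.2, 23.5 and 22.8 CPM in young, 21.6, 23.5 and 20.6 in old and 16.2, 16.6 and 17.8 in ICM. Its ICM libraries lay below all others, by -0.52 ± 0.09 against young (edgeR adjusted p = 3.6e-05) and -0.38 ± 0.09 against old (adjusted p = 1.0e-03). RARS2, the mitochondrial gene that rose, was at 74.2, 82.9 and 70.9 CPM in young, 87.2, 103 and 84.7 in old and 90.7, 87.2 and 82.8 in ICM. In old cells it stood above every young library (0.27 ± 0.08, adjusted p = 4.3e-03). In ICM it overlapped with young (0.19 ± 0.08, adjusted p = 0.035), and this call was lost without young replicate 1, young replicate 3, ICM replicate 1 or ICM replicate 2, and when CDS reads alone were counted.

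Of the 15 pairs of cytosolic and mitochondrial genes for the same amino acid (FARSA and FARSB both paired with FARS2), the cytosolic gene had the lower log2 change in 11 pairs in ICM vs young, in 10 pairs in old vs young and in 9 pairs in ICM vs old. The median difference between the genes of a pair was -0.37, -0.30 and -0.23. The widest gaps in ICM vs young were those of tyrosine (-1.12), cysteine (-1.11) and tryptophan (-1.07), whereas asparagine had the largest gap the other way (0.43). In old vs young the widest was methionine, with MARS at -0.85 and MARS2 at 0.06.

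The histidine genes HARS and HARS2 are paralogues that lie next to each other. The placing of reads with several matches is not given for these tables, and how many reads the genes share was not tested. HARS was at 104, 95.4 and 95.8 CPM in young, 81.4, 88.7 and 82.6 in old and 65.4, 70.9 and 68.3 in ICM. Against young its log2 change was -0.53 (ICM) and -0.22 (old). HARS2 was at 34.9, 33.0 and 30.7 CPM in young, 26.4, 27.3 and 27.3 in old and 28.2, 30.4 and 29.3 in ICM, with a change of -0.28 ± 0.08 in old vs young (edgeR adjusted p = 4.1e-03) and -0.16 ± 0.08 in ICM vs young (adjusted p = 0.067), which was called without young replicate 3 (adjusted p = 0.033). Per length of coding sequence, HARS mRNA was 3.88 ± 0.169 (SD, n = 3) times that of HARS2 in young and 3.05 ± 0.0922 times in ICM.

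Since many cytosolic synthetases are known ATF4 targets, RefSeq promoters (300 bases, from 250 before to 50 after each annotated start, GRCh38.p14) were searched on both strands for the C/EBP-ATF composite motif, written TGATGNAA, or TTNCATCA on the other strand. No other motif was searched. A promoter entry was held for 16 cytosolic and 14 mitochondrial genes. The motif was found for 7 of the 16 cytosolic genes (43.8%) and for 1 of the 14 mitochondrial genes (7.14%), and in 3.62% of all 35116 promoter entries (4.46% of 27305 genes). The stretch around each match is shown on the strand of the gene. The motif, the only part on which the genes were matched, is in capitals. Each is cut at 30 bases after the start.
AARS (chr16:70289660-70289719, minus strand): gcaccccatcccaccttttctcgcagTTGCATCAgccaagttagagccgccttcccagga
CARS (chr11:3057394-3057451, minus strand): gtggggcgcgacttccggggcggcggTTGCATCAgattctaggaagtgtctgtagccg
GARS (chr7:30594819-30594878, plus strand): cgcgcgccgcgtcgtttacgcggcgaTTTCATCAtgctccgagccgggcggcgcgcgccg
IARS (chr9:92293677-92293736, minus strand): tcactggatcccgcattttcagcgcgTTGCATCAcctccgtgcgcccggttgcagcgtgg
MARS (chr12:57488038-57488097, plus strand): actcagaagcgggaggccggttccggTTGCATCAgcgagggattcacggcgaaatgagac
NARS (chr18:57621807-57621848, minus strand): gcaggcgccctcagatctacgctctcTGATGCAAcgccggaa
TARS (chr5:33440941-33440994, plus strand): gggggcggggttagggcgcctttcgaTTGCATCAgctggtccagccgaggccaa
YARS2 (chr12:32756061-32756120, minus strand): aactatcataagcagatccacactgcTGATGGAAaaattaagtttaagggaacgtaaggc

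In 5 of these genes (CARS, IARS, MARS, NARS and TARS) the motif began within 15 bases of the annotated start, counting the first transcribed base as 1, and AARS (187 bases before the start) and YARS2 (197 bases before) had it furthest upstream. CARS, GARS and TARS have 2 promoter entries each, of which 1 held the motif. All 7 cytosolic genes with a match fell in both ICM and old vs young, with median changes of -1.0 and -0.56. Of all 20 cytosolic genes 17 and 19 fell, and of all genes tested 36.1% and 33.7%. The changes of other genes with the motif were not examined. Of the 9 cytosolic genes with an entry and no match, 7 fell in ICM and 8 in old, with medians of -0.52 and -0.40. WARS, which fell furthest, was among the genes with no match in this window, whereas YARS, DARS, LARS and VARS had no promoter entry and had medians of -0.70 (ICM) and -0.67 (old), the latter lower than that of the genes with a match. A match describes the letters only.

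The genes of the amino acid response were examined as a list of 18. In ICM vs young 13 fell and 2 rose, with a median of -1.18 (36.1% of all genes fell and 34.9% rose), and in old vs young 15 fell and 1 rose, with a median of -0.73 (33.7% and 32.4%). ASNS, asparagine synthetase, changed by -3.45 ± 0.11 in ICM and -2.09 ± 0.10 in old, and PHGDH, the first enzyme of serine synthesis, by -2.53 ± 0.08 and -2.28 ± 0.08 (SE). ATF4 mRNA itself changed by -1.02 ± 0.09 with ICM and by -0.56 ± 0.09 in senescence. In ICM vs old, 5 of the 18 were higher and 12 lower, with a median of -0.39 (30.7% and 32.6% of all genes). The 2 that rose in ICM were SLC7A11, the cystine transporter (1.49 ± 0.07), and CEBPB (1.08 ± 0.09).

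Against young cells, the partners of the synthetases moved less by median than the cytosolic synthetases. Of 11 genes for complex scaffolds, editing factors and tRNA-dependent amino acid conversion, 4 fell and 2 rose in ICM vs young (median -0.16) and 7 fell in old vs young (median -0.22). The 36.4% that fell in ICM is near the 36.1% of all genes, and the 63.6% in old stands beside 33.7%. In ICM vs old, 6 were higher and 2 lower (30.7% and 32.6% of all genes), with a median of 0.34. The largest change of the list in ICM vs young was a rise of 1.17, that of PSTK. Its mean mRNA was 2.42 CPM in young (70 reads) and 5.27 CPM in ICM (189 reads). The scaffold AIMP1 rose in ICM (0.29 ± 0.08, edgeR adjusted p = 3.1e-03) and fell in old, where its replicates overlapped with young (-0.22 ± 0.08, adjusted p = 0.026). GATB, a subunit of the mitochondrial enzyme that makes glutaminyl-tRNA, changed by -1.01 ± 0.11 in old vs young (adjusted p = 3.1e-08) and 0.09 ± 0.09 in ICM vs young (adjusted p = 0.42). Of 9 mitochondrial translation factors, 4 rose and 4 fell in ICM and 2 rose and 4 fell in old vs young, with medians of 0.06 and 0.05. These shares (44.4% up and down in ICM, 22.2% up and 44.4% down in old) stand beside 34.9% up and 36.1% down, and 32.4% up and 33.7% down, of all genes. In ICM vs old, 5 of the factors were higher and 1 lower, beside 30.7% and 32.6% of all genes.

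In Ribo-seq, 25 synthetases passed the filter on low counts, all 20 cytosolic genes and 5 mitochondrial ones (CARS2, IARS2, LARS2, RARS2, YARS2), so that the other 11 mitochondrial genes could not be followed at this depth. In ICM vs young, 11 cytosolic genes fell and none rose (edgeR, 12 at an unadjusted p under 0.05), where 12.9% of 4643 genes tested fell and 13.7% rose. In old vs young, 13 cytosolic genes fell and none rose (16 synthetases at an unadjusted p under 0.05), where 17% of all genes fell and 19.3% rose. The medians of the cytosolic genes were -0.84 and -0.71. None of the 5 mitochondrial genes was called by edgeR (0 and 1 at an unadjusted p under 0.05) or by DESeq2. RARS2, whose mRNA rose in old cells, had a footprint change of -0.73 ± 0.33 there (adjusted p = 0.084), which was called in the fit of the compared groups alone (adjusted p = 0.014) and without young replicate 1, ICM replicate 1 or ICM replicate 2. Its footprints per kb of coding length were 10.6, 42.1 and 36.2 CPM in young (159 reads). In old they were 20.3, 42.3 and 18.8 (82 reads), so that the groups overlapped. Counts rested on single libraries, with 7 genes called in ICM vs young without ICM replicate 1 and 6 in old vs young without young replicate 2, young replicate 3 or old replicate 1.

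GARS had the largest fall in footprints in ICM. Its CDS footprints were 753, 964 and 803 CPM in young (38, 603 and 1262 reads), 412, 604 and 497 in old and 330, 232 and 343 in ICM (67, 17 and 15 reads). ICM was below all other libraries and old below young, and the change was -1.49 ± 0.23 in ICM vs young (edgeR adjusted p = 4.1e-06) and -0.86 ± 0.18 in old vs young (adjusted p = 3.9e-04). YARS had 297, 320 and 343 CPM in young, 209, 80.5 and 254.5 in old and 158, 81.8 and 22.8 in ICM, the last resting on 1 read. Both groups lay below young and overlapped, with -1.48 ± 0.32 in ICM vs young (adjusted p = 5.0e-04) and -0.60 ± 0.21 in old vs young (adjusted p = 0.026), of which the latter was lost with DESeq2 (adjusted p = 0.24) and without young replicate 2, young replicate 3, old replicate 1 or old replicate 2.

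In old cells WARS and LARS (leucine) fell furthest in footprints. WARS had 693, 663 and 701 CPM in young, 283, 181 and 275 in old and 310, 518 and 434 in ICM, with no overlap between any groups. Its order thus differed from that of its mRNA, since ICM stood above old here and below it there. The footprint difference between ICM and old, however, was not called in the main fit. These footprints rested on 63, 38 and 19 reads in ICM and on 9 in old replicate 2. The footprint change was -1.34 ± 0.19 in old vs young (edgeR adjusted p = 1.1e-06) and -0.80 ± 0.22 in ICM vs young (adjusted p = 6.7e-03, or 0.14 without ICM replicate 1). LARS had 317, 286 and 313 CPM in young, 131, 101 and 160 in old and 49.3, 232 and 137 in ICM. It was below young in both, by -1.11 ± 0.23 in old (adjusted p = 2.1e-04) and -1.48 ± 0.34 in ICM (adjusted p = 1.0e-03), the latter with -0.73 and an adjusted p of 0.17 without ICM replicate 1.

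In ICM vs old, DARS alone was called in footprints (1.10 ± 0.37, edgeR adjusted p = 0.040), where 5.79% of all genes were higher and 7.62% lower. DARS had 119, 141 and 155 CPM in young, 88.2, 0 and 105 in old and 291, 54.6 and 68.5 in ICM. The groups overlapped, and the level of ICM rested on replicate 1 (59 reads, against 4 and 3). Without that library the change was -0.70 with an adjusted p of 0.56, and the call was also lost without young replicate 2, young replicate 3 or any old replicate (adjusted p between 0.057 and 0.20).

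**Figure D4:**
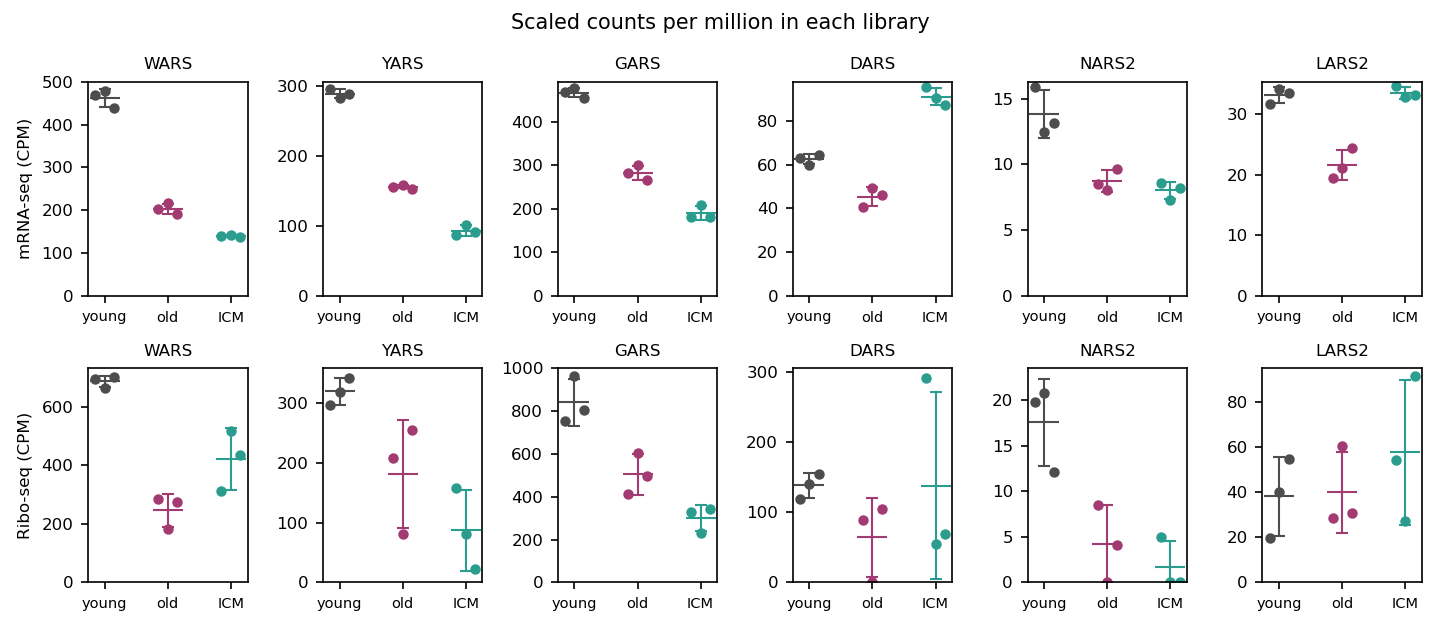
TMM-scaled CPM (axes from 0) of 6 synthetases in each library, mRNA above and footprints below, by condition, with the mean and SD of 3. WARS mRNA is highest in young and lowest in ICM, its footprints are lowest in old (181 to 283 CPM), and DARS footprints in ICM are spread from 54.6 to 291 CPM.

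Changes in footprints and in mRNA went the same way for most members. Of the 25 genes tested in both, the signs were the same for 21 genes when ICM was set against young, for 20 with old against young and for 17 with ICM against old. All 11 and 13 genes called in footprints against young were called in mRNA in the same direction, and none was called in opposite directions. In mRNA-seq 21 of the 25 were called in each of these comparisons. Of all genes tested in mRNA-seq, 36.1% fell and 34.9% rose in ICM vs young, and 33.7% and 32.4% in old vs young. How often all genes agreed between the assays was not computed. QARS (glutamine) had opposite signs in each comparison with young, with mRNA changes of -0.49 and -0.40 and footprint changes of 0.32 ± 0.28 and 0.22 ± 0.21, of which the footprint changes did not pass the test (adjusted p = 0.43 and 0.42). RARS2 also had opposite signs in both, with mRNA changes of 0.19 and 0.27 and footprint changes of -0.14 ± 0.47 and -0.73 ± 0.33. Neither footprint change of RARS2 was called. RARS, whose mRNA rose in ICM (0.27), had 297, 329 and 322 CPM of footprints in young and 325, 259 and 91.3 in ICM (66, 19 and 4 reads). The groups overlapped, with a footprint change of -0.28 ± 0.25 (edgeR adjusted p = 0.44) and a change in footprints relative to mRNA of -0.58 ± 0.26 (adjusted p = 0.27). YARS2 in ICM, and FARSA, CARS2 and IARS2 in old cells, were the other genes of opposite sign against young.

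**Figure D5:**
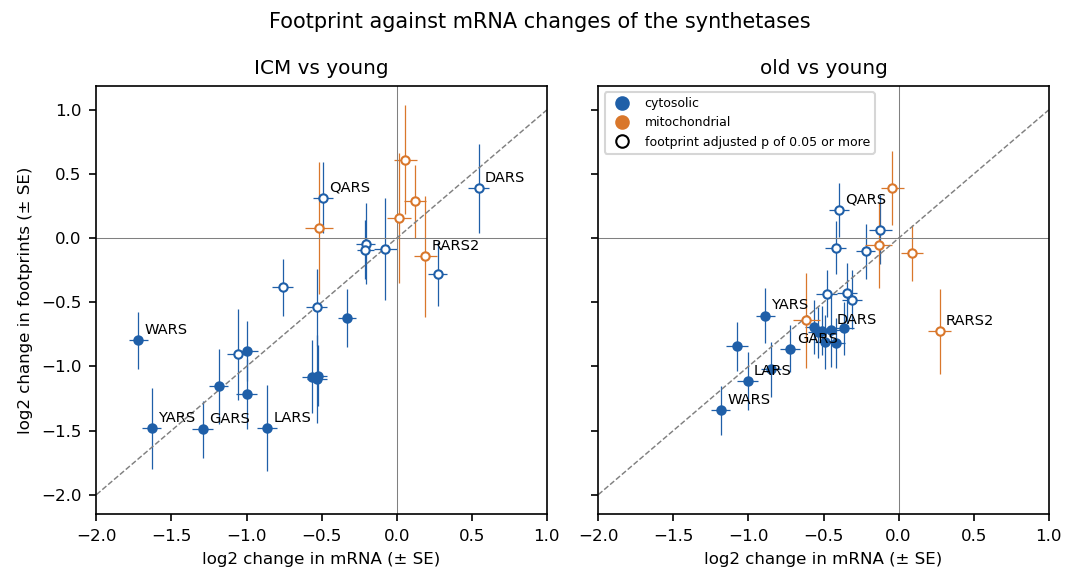
log2 change in footprints against log2 change in mRNA (± SE) for the 25 synthetases tested in both assays, in ICM vs young (left) and old vs young (right), with filled points for genes called in footprints and a dashed line at equal change. WARS lies above the line in ICM (-1.72 in mRNA, -0.80 in footprints) and near it in old (-1.18 and -1.34), and RARS2 lies below the line in old. The footprints of RARS2 in the old libraries overlapped with young.

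Translational efficiency means footprints relative to mRNA, and its change was taken as the assay-by-condition term of 1 fit to the 18 libraries that also held a term for each lysate. WARS was the 1 synthetase called. Its translational efficiency was higher in ICM than in young (0.90 ± 0.23, edgeR adjusted p = 0.028) and than in old (1.05 ± 0.24, adjusted p = 0.040), whereas in old vs young it was -0.14 ± 0.20 (adjusted p = 0.81). In ICM vs young, 1.36% of 4618 genes were called higher and 1.02% lower, and in ICM vs old 0.152% and 0.195%. In old vs young no synthetase was called (edgeR; 2 at an unadjusted p under 0.05, and none with DESeq2), against 0.693% and 0.736% of all genes. WARS was thus 1 of 25 members tested (4%) in each comparison of ICM.

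The call of WARS depended on the libraries and the fit. In ICM vs young its change lay between 0.67 and 1.11 on leaving out any 1 lysate, but it was not called without any one of young replicates 1, 2 and 3, old replicates 1 and 3 and ICM replicates 2 and 3, with adjusted p between 0.054 and 0.30. DESeq2 gave 0.94 with an adjusted p of 0.40. In ICM vs old the change lay between 0.83 and 1.23, and the call was lost without young replicate 2 or 3, any old replicate, or ICM replicate 2 or 3. QARS, with 0.78 ± 0.30 in ICM vs young (adjusted p = 0.18) and 0.59 ± 0.24 in old vs young (adjusted p = 0.27), was not called with the block.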

How the data were processed

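The authors deposited estimated counts of reads per gene symbol and transcript region for each library, not scaled to depth. Per the labels, the processing notes of the submitters name STAR 2.6.0c, featureCounts, DESeq2, deepTools and GRCh37 without saying which made these tables, and the placing of reads with several matches is not given in the sources used here. Of the non-zero values of the synthetases, 5.85% (Ribo-seq) and 5.69% (mRNA-seq) were not whole, and values were rounded. CDS reads were used for Ribo-seq, whereas for mRNA-seq the reads of both UTRs were added to those of the CDS. Sample titles gave the groups and replicate numbers. The methods state that replicates were grown independently and both libraries of a replicate came from one lysate.

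The quasi-likelihood test of edgeR 4.0.16 under R 4.3.3 (TMM scaling, filterByExpr, two-sided, Benjamini-Hochberg over all genes) was fitted to the 9 libraries of each assay, and to all 18 with a lysate block for translational efficiency, with each assay scaled on its own. Each SE is the size of the fitted change over the root of its F value. The scripts were tested on simulated counts. Values in every library are given for the 2 called genes that rose most and the 2 that fell most in each class, assay and comparison (in mRNA-seq, among those whose replicates did not overlap), for genes called in translational efficiency, and for HARS, HARS2, GARS, KARS and WARS. FARSA, and QARS, RARS and RARS2 where their footprints are given, were added after their values were seen. The members, gene lists and rules were chosen with earlier results of these data known. The alternatives were DESeq2 1.42.0, RLE scaling, other filters and thresholds, fits of the compared groups alone, CDS reads alone, a replicate block or none, and leaving out libraries. A further pair was chosen after the data were seen, TMM over both assays together and medians without GARS and KARS. Per-length levels used the coding length of the canonical transcript in GENCODE v44. Promoters were matched by current symbol in RefSeq. Intervals cover counting error only, and the limit printed for a count of 0 rests on 3 counts.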

Additional observations from a re-analysis of the deposited data

Results flagged for a closer look

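The translational efficiency of WARS was higher in ICM than in young cells by 0.90 (log2) and higher than in old cells by 1.05, which in the main fit marks a change that differed between the assays by the test of the difference itself. DESeq2 called neither (adjusted p = 0.40 against young and 0.39 against old). Most fits without 1 lysate also lost these calls. Its mRNA fell further than its footprints in ICM vs young (-1.72 and -0.80), while in ICM vs old the mRNA was lower (-0.54) and the footprints were 0.55 ± 0.24 higher (edgeR adjusted p = 0.13). ICM footprints of WARS rested on 63, 38 and 19 reads. What lies behind this was not tested. No test for single libraries that stand apart was run in these groups of 3, but each library was left out in turn.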

How the results depend on the processing

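Of 261 values of the 15 counts and medians under the alternatives, 201 stayed within 1.5 times (counts) or within the spread between replicates (medians). A required absolute log2 change over 0.6 left 9, 6 and 4 cytosolic genes (reported 19, 19 and 12) and 3, 3 and 1 mitochondrial genes (7, 9 and 7) in mRNA-seq, listed first for ICM against young, then for old against young and last for ICM against old. All of those left against young fell. In ICM against old, 2 of the cytosolic genes were higher and 2 lower, and the mitochondrial gene was higher. How many of all genes pass this threshold was not computed, so these counts have no share to be set beside. Leaving out 1 lysate at a time gave 19 to 19, 19 to 20 and 11 to 13 cytosolic genes, 6 to 8, 7 to 10 and 5 to 7 mitochondrial genes, and differences of medians from -0.40 to -0.32, from -0.23 to -0.14 and from -0.19 to -0.11. In Ribo-seq it gave 7 to 12, 6 to 15 and 0 to 3 synthetases, and in translational efficiency 0 to 2, 0 to 1 and 0 to 1. The 0 in Ribo-seq came without young replicate 2 or 3 or old replicate 1 or 3 and the 3 without any one ICM replicate (without ICM replicate 1 all 3 were lower: HARS, TARS and YARS), the 2 in translational efficiency came without ICM replicate 1, and the 1 for old against young without ICM replicate 2.

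In Ribo-seq, old vs young, DESeq2 gave 7 synthetases (reported 13). In Ribo-seq, ICM vs old (reported 1), where DARS was higher, no filter gave 2 lower (HARS, YARS) and leaving out both libraries of lowest CDS share gave 3 lower (HARS, YARS, GARS), neither with DARS. A mean of at least 50 counts gave 3 higher (DARS, IARS, WARS), an adjusted p under 0.15 gave 6 (3 higher, 3 lower), and the compared groups alone and DESeq2 gave 0. DARS footprints in that comparison lay between -0.70 (without ICM replicate 1, a reversal) and 1.41 (without ICM replicate 2). In translational efficiency, no filter, the compared groups alone, DESeq2 and leaving out both libraries of lowest CDS share each gave 0 for both comparisons of ICM (reported 1 in each), and CDS reads alone and TMM over both assays together gave 0 in ICM vs old. The compared groups alone gave 1 in old vs young (RARS2, -0.95; reported 0).

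Whether replicate numbers pair the samples across conditions is not stated. Same-numbered libraries deviated with correlations between -0.22 and 0.26 in mRNA-seq and between -0.03 and 0.07 in Ribo-seq. These values cannot decide it, since libraries that share a lysate by the methods correlated no better. With the replicate block, Ribo-seq gave 6 synthetases for old against young and 0 for ICM against old. The lysate block of translational efficiency rests on the methods, and deviations of paired libraries correlated with r between -0.05 and 0.06. With no replicate block, translational efficiency gave 2 synthetases in ICM vs young (WARS and QARS) and 2 in old vs young (QARS and RARS2). Of 4166 values of single synthetases under the alternatives, 119 lost and 54 gained a call and 1 reversed. The cause of these changes was not tested. Depth limits Ribo-seq of the mitochondrial genes and of ICM.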

Other observations

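The 5′ UTR column of the footprints was used in no comparison. In young cells the share of footprints there was 19.1% for FARS2 (9 of 47), 11.1% for LARS2 (14 of 126), 8.33% for NARS2 (3 of 36), 7.02% for RARS2 (12 of 171) and 4.96% for WARS, the member with the most such footprints. For WARS in the young libraries 2 of 37, 32 of 447 and 47 of 1148 footprints on the 5′ UTR and CDS together lay in the 5′ UTR, which is 5.41%, 7.16% and 4.09%. In old cells these were 3 of 401, 0 of 9 and 0 of 134, and in ICM 0 of 63, 0 of 38 and 0 of 19. Over the 3 libraries of a condition the share was 4.96% in young (95% exact binomial interval 3.96% to 6.13%), 0.551% in old (0.114% to 1.60%) and 0 of 120 in ICM (0% to 3.03%). For ICM the limit of 3 counts, a separate and rougher bound than this interval, is 2.50%. Of WARS mRNA reads, 11.4% lay in the 5′ UTR in young cells, 10.4% in old cells and 11.2% in ICM. Over all genes, 2.81% to 11.5% of such footprints lay in the 5′ UTR in young, 5.06% to 52.4% in old and 2.47% to 5.48% in ICM. These values are a description, chosen after the data were seen.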
